A study of Mus musculus with 12 samples.

Results

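Bone marrow-derived macrophages (BMDMs) that received NB9464 tumor-conditioned medium (TCM) together with the inhibitor R788 were compared with non-stimulated BMDMs (NS), so that each difference below is the joint effect of medium and inhibitor. The comparison rested on 4 of the 12 libraries, 2 of NB9464 TCM + R788 and 2 of NS, and on the 16281 of 54232 annotated genes that had at least 10 counts in at least 2 of the 12 libraries. Every group was made from marrow of C57BL/6 WT mice grown for 5 days with the growth factor M-CSF. The treated groups are recorded here with 24 h of treatment, and poly(A) RNA was sequenced in bulk. The authors' methods describe incubation with TCM and then R788 for 24 h, without the length of any TCM exposure before R788. NB9464 is a MYCN amp mouse neuroblastoma line, NBT3L is a non-MYCN amp one, and R788 (fostamatinib, the prodrug of the Syk inhibitor R406) was used at 500 nM. The other groups drawn on were NB9464 TCM alone, R788 alone and NBT3L TCM + R788, again with 2 libraries each. TCM was collected for 48 h in serum-free DMEM, whereas BMDMs were grown in RPMI with serum. The medium and solvent given to NS wells were not stated in the sources used here, so what the tumor cells released, the base medium and the lack of serum cannot be told apart.

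Syk is a cytoplasmic tyrosine kinase that docks on phosphorylated ITAM motifs of Fc receptors, C-type lectins and the adaptors Fcer1g and Tyrobp, and passes the signal to Card9, phosphoinositide 3-kinase and NF-kB. Macrophages exposed to tumor-derived factors change what they secrete, which receptors they display and how they use arginine, lipids and iron. Resting BMDMs also keep a low tonic type I interferon signal, which sets the basal level of many antiviral genes.

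The 12 libraries held 44977847 to 56449685 counts assigned to genes, and the 4 compared here held 47020651 to 53053171. Values per library are counts divided by the library's size factor, called normalized counts. The 2 NS libraries differed from each other by a standard deviation of 0.30 (log2, over 11500 genes) and the 2 NB9464 TCM + R788 libraries by 0.33. The R788 pair differed by 0.47, and R788 library 8 detected 16149 genes against 17275 to 18343 in the other 11. No source states that libraries of a group came from separate animals or cultures, so the p values measure the spread between these libraries only. In bulk RNA, fewer cells of a kind and less RNA per cell cannot be told apart.

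Defining macrophage genes were high in all 4 libraries. The summed level of 13 macrophage markers was 1721354 and 1781538 in NS and 2512422 and 2617368 in NB9464 TCM + R788, with none at 0. Adgre1, which encodes F4/80, had normalized counts of 75339 and 72143 in NS and 300719 and 301716 in NB9464 TCM + R788 (log2 change 2.03 ± 0.038). Lyz2, lysozyme, had 1320817 and 1371901 in NS and 2019969 and 1916467 in NB9464 TCM + R788 (log2 change 0.55 ± 0.063, adjusted p = 2.48e-17). Of the 13 markers 7 rose and 6 fell, the latter including the 3 C1q chains, Cd68 and Fcgr1. Transcripts typical of neuroblastoma stood at summed levels of 250.3 and 281 in NS and 594 and 741 in NB9464 TCM + R788, 4 of 9 tested rose, and 12 of the 16 were at 0 in NS and 8 in the treated pair. Mycn had 0 counts in NS and 22.9 and 41.1 with TCM and R788, at least 11.3-fold higher, Hand2 was at least 13.7-fold higher, Tubb3 had 26.3 and 8.53 in NS and 292 and 387 in NB9464 TCM + R788 (log2 change 4.28 ± 0.59, adjusted p = 2.4e-12), and Gata3 had 10.3 and 9.48 in NS and 33.8 and 73.3 in NB9464 TCM + R788 (log2 change 2.43 ± 0.94, adjusted p = 0.0262). The adrenergic marker Dbh was at 0 in all 4 libraries. Elavl4, the most abundant of these transcripts in NS, did not rise. It had 242 and 232 in NS and 193 and 188 in NB9464 TCM + R788, and was not called.

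Markers of other cells were low but moved as well. Neutrophil markers summed to 9019 and 9066 in NS and 13581 and 14010.0 in the treated pair, with S100a8 and Csf3r higher and Ngp, Ltf, S100a9 and Mpo lower. Fibroblast markers summed to 1309 and 1676 in NS and 2279.8 and 2486 in the treated pair, and 4 of 7 rose (Col1a1, Col1a2, Col3a1 and Pdgfrb). B cell markers summed to 782 and 818 in NS and 1273 and 1362 in the treated pair, where Cd79b rose and Ms4a1 and Pax5 were too low to be tested. T and NK cell markers summed to 83.6 and 91.0 in NS and 32.8 and 37.8 in the treated pair, where 9 of 13 were at 0 against 2 in NS. Dendritic cell markers summed to 65.7 and 69.2 in NS and 81.1 and 123 in the treated pair, and mast cell and basophil markers to 11.3 and 17.1 and then 0 and 1.99. The part of such cells in the differences below was not tested.

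Medium and inhibitor together moved 6426 genes past an adjusted p of 0.05 (Wald test of DESeq2 with Benjamini-Hochberg adjustment). For 316 of the genes tested, too low in counts, DESeq2 gave no adjusted p, and these count as uncalled in all percentages. The 6426 were 3264 rises, 20.0% of the genes tested, and 3162 falls, 19.4%, which are the shares to set list counts against. At least 2-fold changes numbered 1156 upward and 1367 downward, and at least 8-fold changes 396 upward and 295 downward. Protein-coding genes made up 3047 of the rises and 2992 of the falls, and lincRNAs 62 and 42 of 590 tested. The median log2 change of all genes tested was 0.01, which is the value to set list medians against. For some of the named genes the p value was too small to be stored as a number, and for these the log2 change and its standard error (SE) stand alone.

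**Figure D1:**
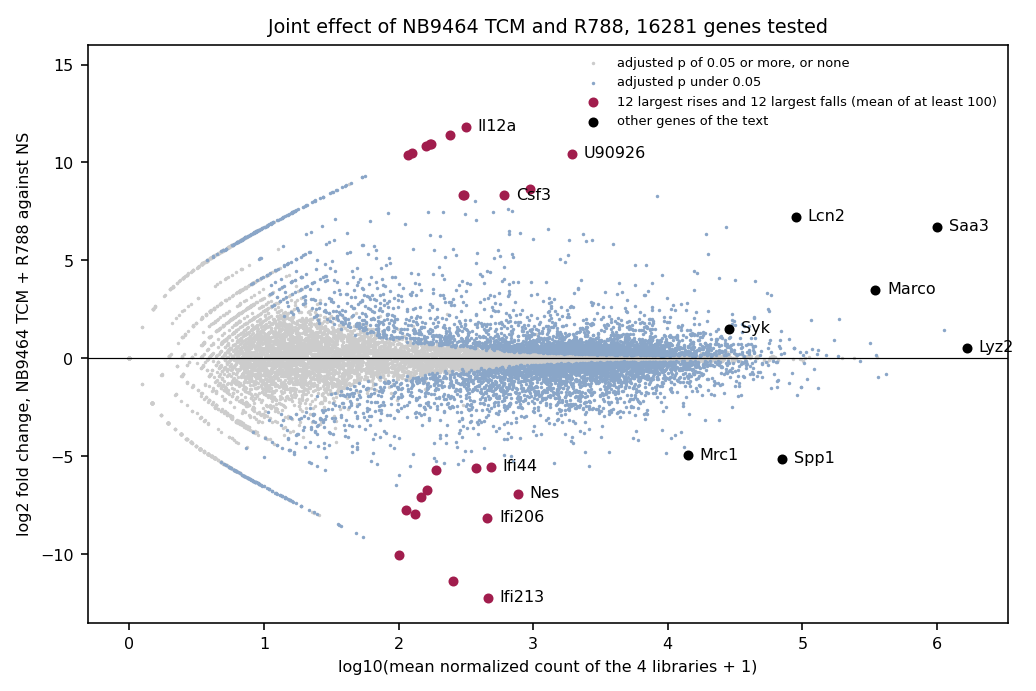
Log2 fold change of NB9464 TCM + R788 against NS (vertical axis) by log10 of the mean normalized count of the 4 libraries (horizontal axis), each point being 1 of 16281 genes. Called genes lie on both sides of 0 except at the lowest counts, with the abundant genes Saa3, Lcn2 and Marco well above 0 and Spp1 and Mrc1 well below it, and the curved edges are genes at 0 in a group.

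The 12 largest rises were taken where the mean reached at least 100, and 7 of them had no count in either NS library. Il12a, the p35 subunit of interleukin 12 (ENSMUSG00000027776, chr3:68690644-68698547, plus strand), went from 0 and 0 to 594 and 663. The neurexin gene Nrxn2 reached 381 and 305, at least 121-fold higher, and Hif3a, a member of the hypoxia-inducible factor family, reached 258 and 239, at least 87.7-fold higher. Gm1720, Lad1, 1700003M07Rik and Nhs were the other genes at 0 in NS, with 323 and 314, 201 and 261, 510.3 and 442 and 311 and 379 in the treated pair. The remaining 5 had a few counts in NS. The transcript U90926 had 0 and 5.69 in NS and 3966 and 3789.9 in NB9464 TCM + R788 (log2 change 10.42 ± 0.59, adjusted p = 1.82e-67), Raver2, an RNA-binding protein, had 3.76 and 5.69 in NS and 1727 and 2055 in NB9464 TCM + R788 (log2 change 8.65 ± 1.09, adjusted p = 1.53e-14), and Shisa3 had 0 and 3.79 in NS and 670.4 and 552 in NB9464 TCM + R788 (log2 change 8.34 ± 0.76, adjusted p = 9.3e-27). Csf3 (granulocyte colony-stimulating factor) went from 1.88 and 5.69 to 1152 and 1269.6, and Fcrl5, an Fc receptor-like protein, from 0 and 3.79 to 594 and 611.

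The 12 largest falls included several genes of the interferon response. Ifi213 (ENSMUSG00000073491, chr1:173566283-173599274, minus strand) went from 907 and 929 to 0 and 0, and Ifi206 had 1055 and 755 in NS and 0 and 6.66 in NB9464 TCM + R788 (log2 change -8.16 ± 0.67, adjusted p = 1.47e-32). Iigp1, an interferon-inducible GTPase, had 268 and 311 in NS and 0 and 4.44 in NB9464 TCM + R788 (log2 change -7.09 ± 0.89, adjusted p = 1.18e-14), Ifit3b had 636 and 827 in NS and 16.9 and 13.3 in NB9464 TCM + R788 (log2 change -5.59 ± 0.39, adjusted p = 9.33e-45), and Ifi44 had 929.8 and 952 in NS and 7.96 and 33.3 in NB9464 TCM + R788 (log2 change -5.53 ± 0.55, adjusted p = 5.76e-23). Outside that response, Nptx1 (a pentraxin) went from 499.6 and 508 to 0 and 0. Il1rl1, the interleukin 33 receptor, went from 225 and 176 to 0 and 0. Sncaip had 1 count over both NB9464 TCM + R788 libraries, an NS-to-treated ratio of 248 (95% interval 68.3 to 2051), and Gm38248 likewise 1 count, a ratio of 212 (95% interval 58.4 to 1757). Nes, the intermediate filament nestin, had 1577 and 1469.7 in NS and 9.95 and 15.6 in NB9464 TCM + R788 (log2 change -6.91 ± 0.41, adjusted p = 4.67e-63), BC147527 had 335 and 310.1 in NS and 5.97 and 0 in NB9464 TCM + R788 (log2 change -6.70 ± 0.75, adjusted p = 4.14e-18), and Lama3, a laminin chain, had 384 and 362 in NS and 9.95 and 4.44 in NB9464 TCM + R788 (log2 change -5.68 ± 0.73, adjusted p = 6.07e-14). That the NS libraries lay apart from the treated ones in these 24 genes was part of the rule that chose them.

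The same 2 libraries were also set against the libraries that shared one treatment with them. Against NB9464 TCM alone, R788 raised 942 genes (5.79%) and lowered 1417 (8.70%), and leaving out 1 library gave 1419 calls in all without NB9464 TCM library 3, 1484 without NB9464 TCM + R788 library 9 and 1571 without library 10. Against R788 alone, TCM raised 3378 genes (20.7%) and lowered 3198 (19.6%), with 5606 calls in all without R788 library 8. The joint effect minus the sum of both single effects, on the log2 scale, was above 0 for 1013 genes (6.22%) and below 0 for 1019 (6.26%). That count of 2032 became 1341 without NS library 2, 1815 without R788 library 8 and 2967 without R788 library 7. Against NBT3L TCM + R788, 575 genes were higher (3.53%) and 992 lower (6.09%), 851 to 994 in all when any of the 4 libraries compared was left out. No adjusted p was given for 3472 genes against NB9464 TCM, 0 against R788, 3472 for the difference from the sum and 1263 against NBT3L TCM + R788. Set against NS on their own, NB9464 TCM raised 2805 genes (17.2%) and lowered 2747 (16.9%), and R788 raised 1882 (11.6%) and lowered 2445 (15.0%). These comparisons share libraries with one another, so their values are given side by side for each gene. The percentages of each comparison are the shares to set its list counts against.

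**Figure D2:**
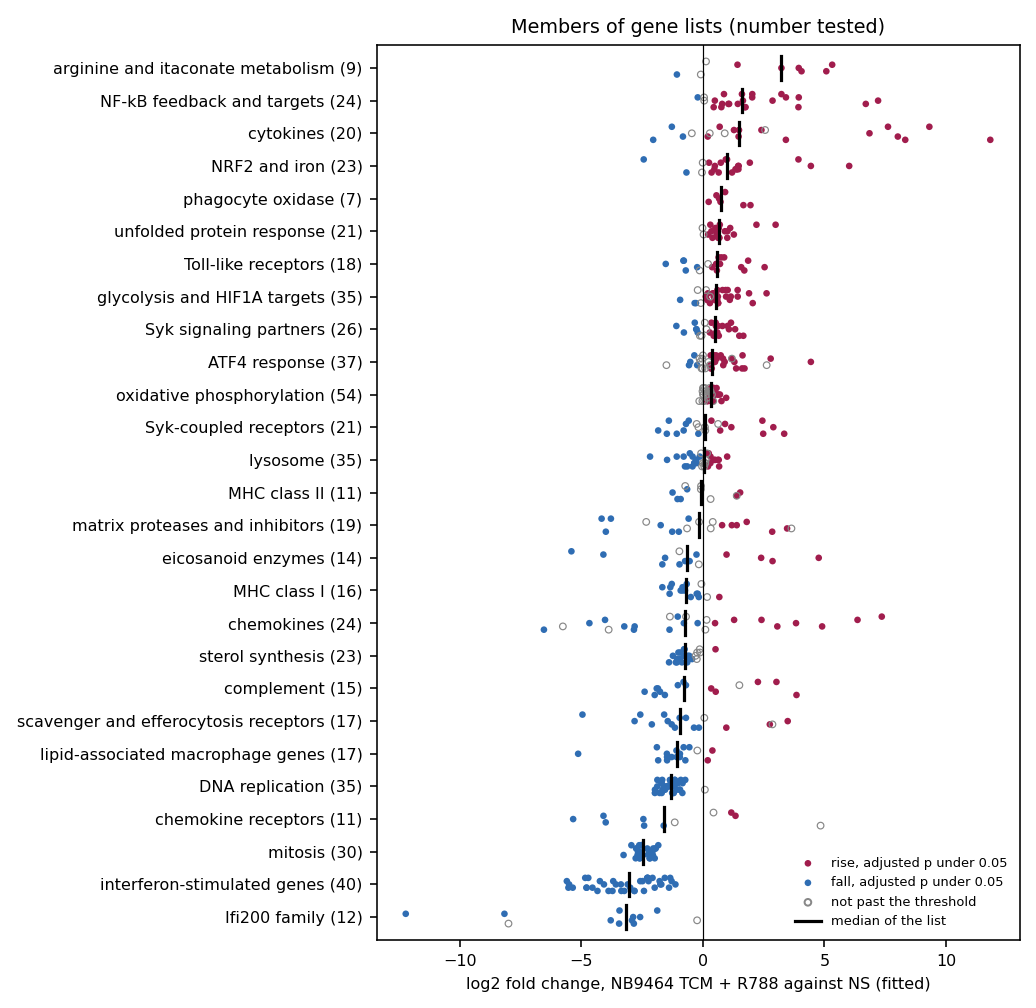
Log2 fold changes of NB9464 TCM + R788 against NS for members of 27 gene lists, 1 point a gene, red for called rises, blue for called falls, open for uncalled genes, with a bar at the list median. Interferon, Ifi200, mitosis and replication genes lie almost wholly to the left of 0, while arginine, NF-kB and iron genes lie mostly to the right.

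Syk, the gene of the kinase that R788 targets, rose. It had 15428 and 14546 in NS, 34238 and 33632 with NB9464 TCM, 18344 and 17601 with R788 and 41094 and 43780.2 with both (joint log2 change 1.50 ± 0.051, adjusted p = 2.35e-188; chr13:52583173-52648792, plus strand). The 4 pairs did not overlap, with NS lowest, then R788, then TCM, and the joint pair highest. R788 added 0.32 ± 0.051 to the TCM level (adjusted p = 7.32e-09), and the difference of 0.061 ± 0.072 between the joint effect and the sum of both single ones was not called (adjusted p = 0.658).

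Kinases and adaptors around Syk mostly rose with it: of 26 tested partners (Syk included) 16 rose and 6 fell, with a median of 0.49. The Src-family kinase Fgr had 2635 and 2670.1 in NS and 5477 and 5267 in NB9464 TCM + R788 (log2 change 1.02 ± 0.080, adjusted p = 5.42e-36), and Lyn had 12259 and 11795 in NS and 17927 and 18475 in NB9464 TCM + R788 (log2 change 0.60 ± 0.056, adjusted p = 1.13e-25). Adaptor and exchange-factor genes moved the same way, Lcp2 with a log2 change of 1.16 ± 0.056 and Vav1 with 1.08 ± 0.054. The inhibitory receptor Fcgr2b had 3378 and 3233 in NS and 10366 and 10634 in NB9464 TCM + R788 (log2 change 1.67 ± 0.067, adjusted p = 4.08e-135), and the phosphatase Ptpn6 (SHP-1) had a log2 change of 0.81 ± 0.051. Vav3 fell to 1747 and 1764 from 3945 and 3510.2 (-1.09 ± 0.11), as did the adaptor Lat2 (-0.78 ± 0.074) and the lipid phosphatase Inpp5d (-0.33 ± 0.058). Btk, which acts beside Syk, had 5534 and 4973 in NS and 4873 and 4806 in the treated pair and was not called (adjusted p = 0.191). Fgr, Lyn, Lcp2, Vav1, Ptpn6 and Btk were chosen after their values were seen.

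Receptors that signal through Syk split. Among 21 tested, 8 rose and 8 fell, with a median of 0.088. Clec4e (Mincle), a receptor for mycobacterial glycolipid and for dead cells, had 9756 and 9905 in NS and 99341 and 100796 in NB9464 TCM + R788 (log2 change 3.35 ± 0.060). Trem3, an activating receptor of the TREM family, had 309 and 334 in NS and 2428 and 2371 in NB9464 TCM + R788 (log2 change 2.90 ± 0.14, adjusted p = 6.87e-98), and Treml4 had 642 and 432 in NS and 3014 and 3002 in NB9464 TCM + R788 (log2 change 2.48 ± 0.14, adjusted p = 2.95e-66). The dectin-2 gene Clec4n reached 14972 and 13917 from 2613 and 2672, and the shared gamma chain Fcer1g 75812 and 74641 from 38489.6 and 41295. Trem2, a lipid receptor, fell to 9302 and 8919 from 30906 and 34056 (-1.83 ± 0.067, adjusted p = 4.15e-165). Fcgr1, the high-affinity IgG receptor, had 13785 and 13973 in NS and 6557 and 6670.1 in NB9464 TCM + R788 (log2 change -1.07 ± 0.054, adjusted p = 2.81e-84). Trem1 had 1524 and 1491 in NS and 530.2 and 552 in NB9464 TCM + R788 (log2 change -1.48 ± 0.17, adjusted p = 9.39e-18), Cd300lb 12562 and 12804 in NS and 4906 and 4737 in NB9464 TCM + R788 (log2 change -1.40 ± 0.061, adjusted p = 1.65e-114), and Clec7a (dectin-1) 507 and 560.4 in NS and 367 and 293 in NB9464 TCM + R788 (log2 change -0.69 ± 0.20, adjusted p = 0.00164). Trem2 stood at 9719 and 10732 with TCM alone and 34069.9 and 33312 with R788 alone, whereas Fcgr1 stood at 12334 and 12531 and 3045 and 2874. The joint level of Trem2 lay just below that of TCM alone, a difference not called (adjusted p = 0.0649), and that of Fcgr1 lay between both single treatments. Clec4n and Fcer1g were chosen after their values were seen.

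The interferon response fell throughout. All 40 tested interferon-stimulated genes fell, with log2 changes of -5.59 to -1.12 and a median of -3.04. Each single treatment lowered most of them: NB9464 TCM alone lowered 39 (median -0.86) and R788 alone 39 (median -1.57), beside 16.9% and 15.0% of all genes tested. Adding R788 to TCM lowered 38 of the 40 (median -2.0), and adding TCM to R788 lowered 34, also when either R788 library was left out. The joint fall was past the sum of both single falls for 11 genes and short of it for 4, beside 6.26% and 6.22% of all genes tested. For the other 25 the difference from that sum was not called.

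Promoter windows of Ifit3 and of Ifi213, a gene of the related Ifi200 family, are shown because they hold the interferon-stimulated response element, 2 runs of GAAA with any 2 bases between them on either strand, which is bound by the ISGF3 complex. Capitals mark the element in the 250 bases before the RefSeq start (build GRCm38.p6). Ifit3 lies at chr19:34583279-34583528, plus strand, with 2 matches, and Ifi213 at chr1:173599273-173599522, minus strand, with 1.
Ifit3: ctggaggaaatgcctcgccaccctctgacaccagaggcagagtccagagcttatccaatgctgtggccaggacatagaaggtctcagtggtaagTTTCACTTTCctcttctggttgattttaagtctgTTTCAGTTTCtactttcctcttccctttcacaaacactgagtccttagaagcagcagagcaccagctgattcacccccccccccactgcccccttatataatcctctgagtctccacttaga
Ifi213: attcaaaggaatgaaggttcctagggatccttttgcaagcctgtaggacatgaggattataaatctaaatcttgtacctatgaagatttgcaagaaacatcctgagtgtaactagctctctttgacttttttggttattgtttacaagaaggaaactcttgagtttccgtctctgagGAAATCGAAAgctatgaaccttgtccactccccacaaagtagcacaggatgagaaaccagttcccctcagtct
Over windows from 250 bases before to 50 after the start, 21 of 35 windows of the interferon list held the element (60.0%), as did 10 of 13 of the Ifi200 list (76.9%), against 3.44% of all 32851 windows. Such a match describes the letters only.

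Ifit3, whose product limits viral RNA, fell to 77.6 and 148 from 5209.6 and 4887 (-5.50 ± 0.20, adjusted p = 4.27e-169). It stood at 627 and 868 with NB9464 TCM and 515 and 530.1 with R788, so that none of the 4 pairs overlapped another. Irf7, the factor that amplifies interferon production, had 25056 and 25319 in NS, 7585 and 7576 with TCM, 4008 and 4138 with R788 and 1095 and 1076 with both (joint log2 change -4.54 ± 0.065). Oasl2 and Oas3, sensors of double-stranded RNA or their relatives, fell by 4.83 and 4.06 on the log2 scale. Mx1, a GTPase against influenza virus, had 2577 and 2960.3 in NS and 75.6 and 60.0 in NB9464 TCM + R788 (log2 change -5.35 ± 0.22, adjusted p = 8.31e-131), Rsad2 (viperin) 4010.3 and 3547 in NS and 134 and 243 in NB9464 TCM + R788 (log2 change -4.33 ± 0.18, adjusted p = 8.59e-126), and Isg15 5128 and 5633 in NS and 841 and 698 in NB9464 TCM + R788 (log2 change -2.80 ± 0.12, adjusted p = 9.07e-126). Of other transcription factors of the pathway, Stat2 had -2.29 ± 0.067 and Irf9 -1.12 ± 0.077, which was the smallest fall of the list. Gbp5 had 3.98 and 86.6 in the 2 treated libraries, a wide gap, against 244 and 293 in NS. These genes other than Ifit3 were chosen after their values were seen.

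The Ifi200 genes, a cluster on chromosome 1 coding for DNA sensors and their relatives, fell alongside. Of 12 tested, 10 fell and none rose, with a median of -3.17. Ifi204 had 10414 and 9626 in NS and 1196 and 1469.5 in NB9464 TCM + R788 (log2 change -2.91 ± 0.092, adjusted p = 5.52e-218), Ifi203 6179.8 and 5713 in NS and 523 and 573 in NB9464 TCM + R788 (log2 change -3.44 ± 0.11, adjusted p = 1.06e-219), Ifi209 4572 and 4383 in NS and 355 and 293 in NB9464 TCM + R788 (log2 change -3.79 ± 0.13, adjusted p = 1.36e-190) and Mndal 6571 and 6359.6 in NS and 880.3 and 933 in NB9464 TCM + R788 (log2 change -2.83 ± 0.10, adjusted p = 3.7e-182). Aim2, the DNA sensor of the inflammasome, was the exception with many counts: 2144 and 2368 in NS and 2031 and 1807 in NB9464 TCM + R788 (adjusted p = 0.0551). Ifi208 had 38.5 and 59.7 in NS and no count in the treated pair, and was not called (adjusted p = 0.178). Members of this family are close copies, so reads could have been split between them.

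**Figure D3:**
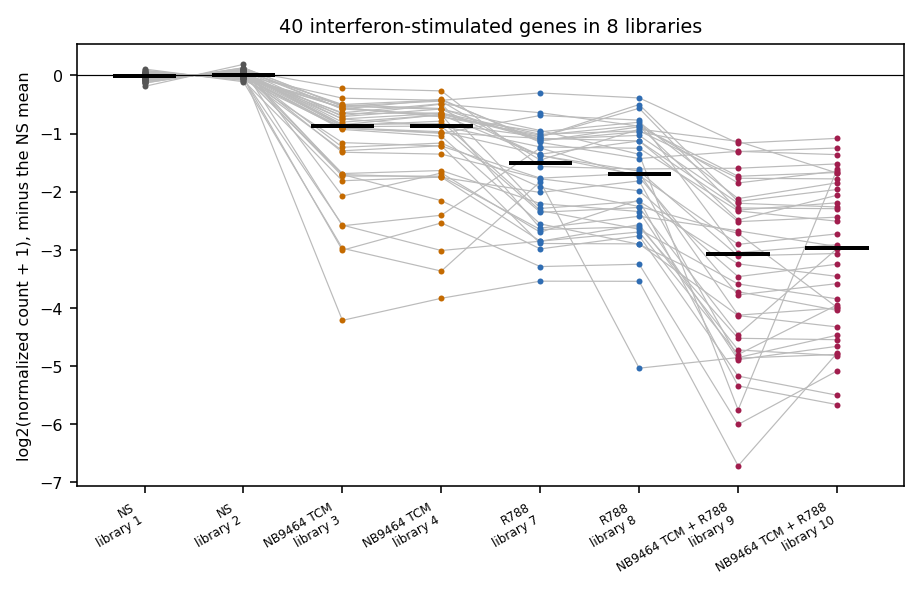
Log2(normalized count + 1) minus the NS mean for the 40 interferon-stimulated genes in the NS, NB9464 TCM, R788 and NB9464 TCM + R788 libraries, with thin lines joining a gene's values and bars at each library's median. The medians step down from NS through either single treatment to both treatments together.

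Secreted signals moved apart from the interferon genes, mostly upward. Of 20 cytokine genes tested 13 rose and 3 fell, with a median of 1.48. Il12b, the p40 subunit shared by interleukins 12 and 23, had 5.64 and 0 in NS and 725 and 744 in NB9464 TCM + R788 (log2 change 8.02 ± 0.62, adjusted p = 1.15e-36). Il1a had 1.88 and 11.4 in NS and 1362 and 1228 in NB9464 TCM + R788 (log2 change 7.62 ± 0.40, adjusted p = 1.22e-77), Il6 had 0 and 3.79 in NS and 227 and 209.9 in NB9464 TCM + R788 (log2 change 6.85 ± 0.76, adjusted p = 3.26e-18), and Il1b had 52.6 and 55.0 in NS and 569 and 579.8 in NB9464 TCM + R788 (log2 change 3.42 ± 0.17, adjusted p = 9.73e-88). The anti-inflammatory cytokine Il10 went from 179 and 169 to 912 and 941 (2.41 ± 0.19, adjusted p = 1.9e-36). It stood at 672 and 786 with TCM alone and at 81.8 and 75.8 with R788 alone, so the inhibitor's own effect was a fall. The joint level was the highest of the 4 groups, but its difference from TCM alone was not called. Ebi3, the subunit shared by interleukins 27 and 35, had 2089.7 and 2479.5 in NS and 6189.9 and 6640.1 in NB9464 TCM + R788 (log2 change 1.49 ± 0.10, adjusted p = 4.4e-50). The falls were Il1rn (the interleukin 1 receptor antagonist), Il18 and Il15. Il1rn stood at 1975 and 2114 in NS, 3968 and 4264 with TCM, 429.9 and 288 with R788 and 1129 and 1194 with both (-0.82 ± 0.12, adjusted p = 1.82e-11). Il15 had 1073 and 1126 in NS and 292 and 242 in NB9464 TCM + R788 (log2 change -2.04 ± 0.20, adjusted p = 3.11e-24). Tnf, with 2781 and 3037 in NS and 8185 and 7957 in NB9464 TCM + R788 (log2 change 1.47 ± 0.074, adjusted p = 9.66e-86), rose, and Il1a, Il6, Ebi3 and Tnf were chosen after their values were seen.

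Chemokines moved both ways. Among 24 tested 8 rose and 10 fell, with a median of -0.73, or -0.69 with genes at 0 in a group set to their bound. The neutrophil-attracting CXC chemokines rose, whereas the monocyte-attracting CC chemokines Ccl7, Ccl12 and Ccl2 and the interferon-dependent Cxcl10 fell. Windows of Cxcl1, Cxcl3 and Cxcl10 are shown because they hold the NF-kB site, GGGA and TTCC with any 2 bases between them on either strand, which 4 of 16 chemokine windows held (25.0%; Cxcl1, Cxcl2, Cxcl3 and Cxcl10) against 1.47% of all windows. Capitals mark that site and, further upstream in Cxcl10, the interferon element. The windows lie at chr5:90890995-90891244, plus strand (Cxcl1), chr5:90785851-90786100, plus strand (Cxcl3) and chr5:92348890-92349139, minus strand (Cxcl10), again on GRCm38.p6.
Cxcl1: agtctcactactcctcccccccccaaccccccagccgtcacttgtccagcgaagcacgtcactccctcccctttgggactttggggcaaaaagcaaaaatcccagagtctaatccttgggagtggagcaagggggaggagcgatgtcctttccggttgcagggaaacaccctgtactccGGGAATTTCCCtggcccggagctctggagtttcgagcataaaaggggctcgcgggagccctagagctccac
Cxcl3: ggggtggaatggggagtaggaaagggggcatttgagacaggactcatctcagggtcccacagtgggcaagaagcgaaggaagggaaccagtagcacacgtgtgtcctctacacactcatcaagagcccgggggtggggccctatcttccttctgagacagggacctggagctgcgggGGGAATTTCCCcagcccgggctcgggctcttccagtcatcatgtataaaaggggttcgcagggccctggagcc
Cxcl10: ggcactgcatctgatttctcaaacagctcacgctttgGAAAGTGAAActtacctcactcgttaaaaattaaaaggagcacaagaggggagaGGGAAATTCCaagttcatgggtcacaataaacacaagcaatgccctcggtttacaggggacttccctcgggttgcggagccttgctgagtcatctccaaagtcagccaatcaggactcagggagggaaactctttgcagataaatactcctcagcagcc
In Cxcl1 and Cxcl3 the site reads on both strands, so that 11 letters are in capitals. No window was found for Ccl2 or Cxcl5.

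Cxcl1 had 115 and 108 in NS and 3333 and 3347 in NB9464 TCM + R788 (log2 change 4.91 ± 0.13). With TCM alone it stood at 3202 and 3559 and with R788 alone at 125 and 110.2, and the difference that R788 made within TCM was not called (-0.017 ± 0.088, adjusted p = 0.934). Cxcl3 had 56.4 and 56.9 in NS and 4928 and 4391 in NB9464 TCM + R788 (log2 change 6.36 ± 0.40, adjusted p = 1.09e-54), Cxcl2 565 and 577 in NS and 8564 and 7716 in NB9464 TCM + R788 (log2 change 3.83 ± 0.079), and Cxcl5 1.88 and 5.69 in NS and 626 and 614 in NB9464 TCM + R788 (log2 change 7.36 ± 0.54, adjusted p = 1.55e-40). Ccl5, a T cell attractant, went from 1485 and 1606 to 8342 and 8136 (2.41 ± 0.23, adjusted p = 1.29e-25) against 12496 and 12093 with TCM and 299 and 170.1 with R788. Ccl3 reached 17823 and 17602 from 2025 and 2208 and Ccl4 2773 and 2762 from 1923 and 1979.8, both below the TCM levels of 26461 and 25681 and 7968 and 8024.

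The monocyte attractants ran against those. Ccl7 had 11931 and 12492 in NS, 27308 and 28739.8 with TCM, 949 and 984 with R788 and 1719.8 and 1712 with both (joint -2.83 ± 0.060, R788 within TCM -4.03 ± 0.060). Ccl2 stood at 23264 and 25789, 57537 and 58327, 3880.0 and 2947 and 9472 and 9529 in the same order (joint -1.37 ± 0.087, adjusted p = 1.94e-54). Both were thus above NS with the medium alone and below NS once R788 was added. Ccl12 had 493 and 619 in NS and 26.9 and 42.2 in NB9464 TCM + R788 (log2 change -4.02 ± 0.29, adjusted p = 1.7e-43). Cxcl10 fell to 103 and 42.2 from 664 and 709 (-3.23 ± 0.30, adjusted p = 9.2e-26), and Cxcl9 from 26.3 and 9.48 to 0 and 0, at least 5.66-fold lower. Ccl6 (-1.03 ± 0.084) and Ccl9 (-0.78 ± 0.048), abundant in resting BMDMs, fell too. Ccl2, Ccl3, Ccl4, Ccl6, Ccl9 and Cxcl9 were chosen after their values were seen.

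**Figure D4:**
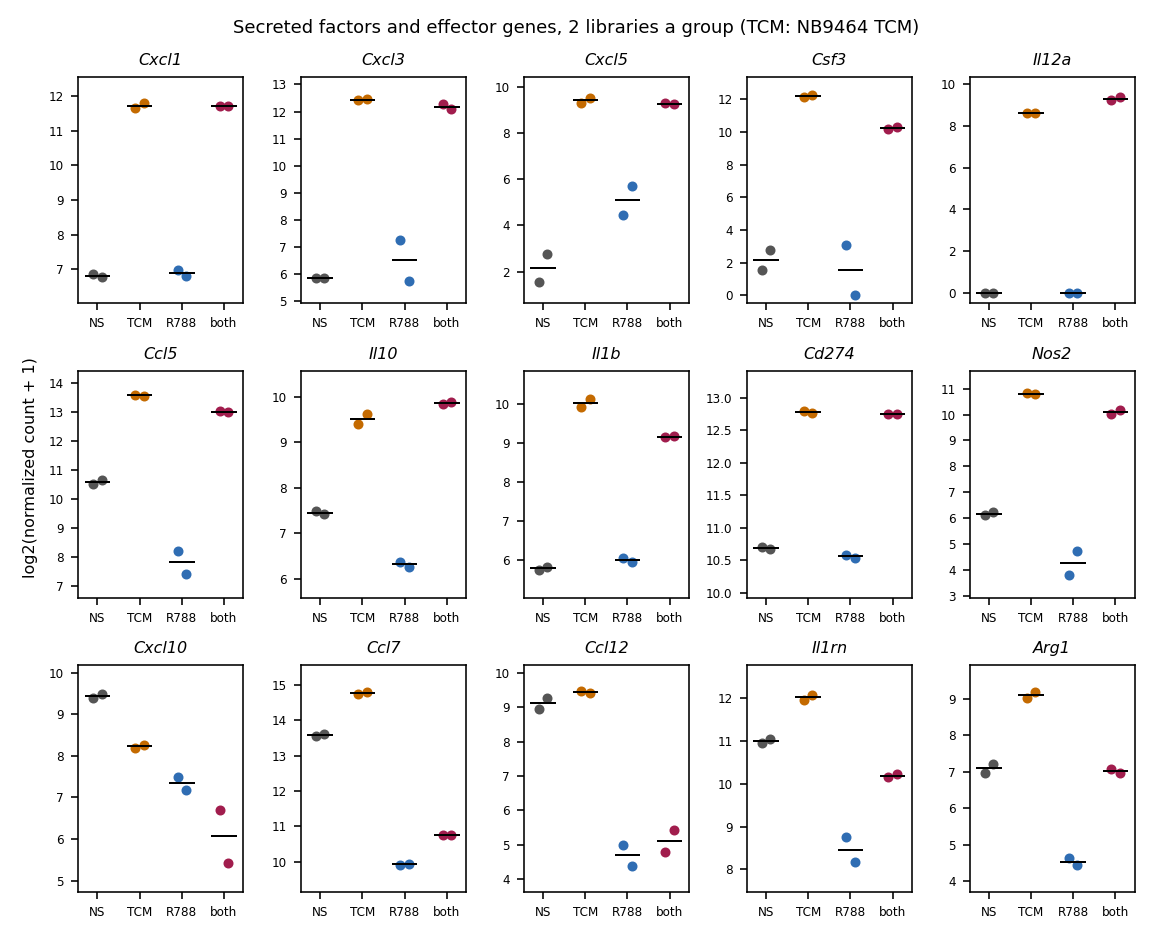
Log2(normalized count + 1) of 15 secreted or effector genes in the 2 libraries of NS, NB9464 TCM, R788 and both, 1 panel a gene with its own axis, points for libraries and bars for means. Cxcl1 and Cxcl3 change little when R788 is added to TCM and Il12a rises, while Ccl7, Ccl12 and Arg1 drop.

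Genes of the NF-kB program rose broadly. Of 24 feedback and target genes 21 rose and 1 (Tnip3, -0.21 ± 0.057) fell, with a median of 1.63. NB9464 TCM alone also raised 21 and lowered 1 (median 1.36), beside 17.2% and 16.9% of all genes. R788 alone raised 11 and lowered 7, beside 11.6% and 15.0%. Adding R788 to TCM raised 13 and lowered 3, beside 5.79% and 8.70%. The acute-phase gene Saa3 reached 2038600.3 and 1937812 from 17338 and 20855 (6.70 ± 0.15), and the iron-carrier trap Lcn2 180129.7 and 173826 from 1164 and 1231 (7.21 ± 0.068). Scaled by gene length and library total (TPM), Saa3 had a level of 38726 against 466 in NS, and Lyz2 to 75914 against 65162. The lengths came with the counts, and for 97.3% of annotated genes they equal all annotated exons merged. By these lengths Saa3 was below Lyz2 in both groups, far below it in NS and closer to it in the treated pair. That order depends on the lengths, since in normalized counts both genes were nearly level in the treated pair, where Lyz2 had 2019969 and 1916467. Feedback inhibitors were among the rises, Nfkbia with 7724 and 7867 in NS and 26806 and 25935 in NB9464 TCM + R788 (log2 change 1.76 ± 0.050, adjusted p = 2.1e-265), Tnfaip3 (A20) with 2190.2 and 1855 in NS and 6726 and 6718 in NB9464 TCM + R788 (log2 change 1.73 ± 0.088, adjusted p = 1.22e-84), and Nfkbiz with a log2 change of 3.42 ± 0.067. Rela and Rel, which encode NF-kB subunits, stood at 5304 and 5846 and 2112 and 1756 in NS and at 5601 and 5968 and 2069 and 1958 in the treated pair and were not called (adjusted p = 0.624 and 0.745). The NF-kB site stood in 3 of 23 windows of this list (13.0%), which belong to 2 genes, but only in 1 (4.35%) of the windows of 200 bases before the start, and in 3 of 20 of the cytokine list (15.0%). Nfkbia, Tnfaip3, Nfkbiz, Rela and Rel were chosen after their values were seen.

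Most chemokine receptors fell. Of 11 tested 6 fell and 2 rose, with a median of -1.61. Ccr2, the Ccl2 receptor, had 6189 and 5835 in NS and 386 and 369.9 in NB9464 TCM + R788 (log2 change -3.99 ± 0.11, adjusted p = 2.9e-276). Cx3cr1, the fractalkine receptor, had 3349 and 3099 in NS and 598 and 614 in NB9464 TCM + R788 (log2 change -2.41 ± 0.14, adjusted p = 2.25e-63), Ccr1 had 3721 and 3913 in NS and 1159 and 1347 in NB9464 TCM + R788 (log2 change -1.61 ± 0.14, adjusted p = 6.88e-31), and Ccr3 had 451 and 399 in NS and 7.96 and 13.3 in NB9464 TCM + R788 (log2 change -5.33 ± 0.54, adjusted p = 8.42e-22). Cxcr4, the Cxcl12 receptor, stood at 1099 and 1144 in NS, 151 and 124 with TCM, 3182 and 2710.5 with R788 and 276 and 136 with both (-2.44 ± 0.24, adjusted p = 1.77e-23), so that R788 alone was the highest pair and the joint one overlapped TCM alone. Ccrl2 had 213 and 291 in NS and 584 and 698 in NB9464 TCM + R788 (log2 change 1.35 ± 0.22, adjusted p = 4.96e-09), and the chemerin receptor Cmklr1 had 1684 and 1758 in NS and 3664 and 4098 in NB9464 TCM + R788 (log2 change 1.17 ± 0.10, adjusted p = 4.88e-31).

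A list of 18 immunosuppressive genes, which the study picked on these samples and which is therefore no independent evidence of its direction, had 12 rises and 2 falls (median 0.63), against 16 rises and no fall with TCM alone (median 1.45), where 17.2% of all genes rose. Adding R788 to TCM lowered 9 of the 18 and raised none. Arg1, which splits arginine, stood at 125 and 148 in NS, 517 and 582 with TCM, 23.6 and 20.8 with R788 and 133 and 124 with both. The treated pair overlapped the NS pair (joint -0.081 ± 0.24, adjusted p = 0.841). Mmp9 had 1157 and 1071 in NS and 3988 and 3804 in NB9464 TCM + R788 (log2 change 1.81 ± 0.080, adjusted p = 2.63e-112), and Cd14 had 25432 and 26706 in NS and 44625 and 43636 in NB9464 TCM + R788 (log2 change 0.76 ± 0.063, adjusted p = 5.45e-32). Stat3, Plod3 and Tgfb1 rose by less, with log2 changes of 0.35, 0.50 and 0.20. The 2 falls were Myc, with 2217 and 2315 in NS and 1885 and 1930.5 in NB9464 TCM + R788 (log2 change -0.25 ± 0.10, adjusted p = 0.0365), and Msr1, with 42710.2 and 42247 in NS and 33574 and 32583 in NB9464 TCM + R788 (log2 change -0.36 ± 0.044, adjusted p = 3.32e-15). Cd163, Vegfa and Igf1r had joint log2 changes of 0.064, 0.14 and -0.27 and were not called (adjusted p = 0.804, 0.412 and 0.501).

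Most arginine and itaconate genes rose. Of 9 tested 6 rose and 1 fell, with a median of 3.23. Slc13a3, a carrier of dicarboxylates such as itaconate (chr2:165405028-165473230, minus strand), reached 38689 and 38619.7 from 967 and 967 (5.32 ± 0.060). Acod1, which makes itaconate, reached 104946 and 107026 from 11574 and 10962 (3.23 ± 0.046). The arginine importer Slc7a2 had 82.6 and 98.6 in NS and 3281 and 2844 in NB9464 TCM + R788 (log2 change 5.08 ± 0.16, adjusted p = 3.08e-216), the nitric oxide synthase Nos2 67.6 and 74.9 in NS and 1044 and 1153 in NB9464 TCM + R788 (log2 change 3.95 ± 0.18, adjusted p = 2.93e-101), and the mitochondrial arginase Arg2 31.9 and 17.1 in NS and 382 and 437 in NB9464 TCM + R788 (log2 change 4.06 ± 0.33, adjusted p = 8.45e-33). Ass1, which recycles citrulline, had 3889 and 4110.4 in NS and 11082 and 10434 in NB9464 TCM + R788 (log2 change 1.43 ± 0.075, adjusted p = 3.52e-80), and Odc1, the first enzyme of polyamine synthesis, had 4940.1 and 5056 in NS and 2428 and 2353 in NB9464 TCM + R788 (log2 change -1.06 ± 0.081, adjusted p = 4.93e-38).

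Ligands and receptors of checkpoint and costimulatory pathways went both ways, 5 up and 4 down of 14 tested (median 0.091). Cd274 (PD-L1) had 1657 and 1627 in NS and 6852 and 6910.0 in NB9464 TCM + R788 (log2 change 2.07 ± 0.069, adjusted p = 1.32e-192), and at 7117 and 6964 with TCM alone it differed from the joint pair by an uncalled amount (-0.033 ± 0.066, adjusted p = 0.814). Nectin2, a ligand of TIGIT, had 554 and 624 in NS and 2579 and 2738 in NB9464 TCM + R788 (log2 change 2.17 ± 0.12, adjusted p = 6.32e-74), and Vsir (VISTA) had 11433 and 11435 in NS and 18969 and 19380.4 in NB9464 TCM + R788 (log2 change 0.75 ± 0.053, adjusted p = 2.35e-43). Pdcd1lg2 (PD-L2) rose from 1 count over both NS libraries to 27.9 and 22.2, a treated-to-NS ratio of 53.4 (95% interval 9.13 to 2152) (adjusted p = 0.00535). The costimulator Cd86 had 479 and 601 in NS and 247 and 258 in NB9464 TCM + R788 (log2 change -1.10 ± 0.23, adjusted p = 6e-06), Havcr2 (TIM-3) had 3326 and 2753 in NS and 633 and 749.8 in NB9464 TCM + R788 (log2 change -2.14 ± 0.14, adjusted p = 3.18e-48), and Cd276 (B7-H3) had 1058 and 925 in NS and 213 and 247 in NB9464 TCM + R788 (log2 change -2.11 ± 0.24, adjusted p = 1.02e-17). Cd80 and Cd40 had joint log2 changes of 0.14 and 0.012 and were not called (adjusted p = 0.453 and 0.965).

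Class I antigen presentation fell modestly. Of 16 genes tested 13 fell and 1 rose, with a median of -0.70. The heavy chains H2-K1 and H2-D1 fell by 0.16 and 0.25 on the log2 scale, and the light chain B2m by 0.73. Larger falls were those of the peptide transporter Tap1, with 7054 and 6783 in NS and 2299.7 and 2066 in NB9464 TCM + R788 (log2 change -1.66 ± 0.095, adjusted p = 8.81e-68), the class I transactivator Nlrc5, with 3208 and 3193 in NS and 1090.2 and 1398 in NB9464 TCM + R788 (log2 change -1.36 ± 0.11, adjusted p = 2.28e-31), and H2-T23, with 11616 and 12043 in NS and 4599 and 4773 in NB9464 TCM + R788 (log2 change -1.34 ± 0.091, adjusted p = 6.5e-47). The single rise was the proteasome activator Psme2, with 8626 and 9506 in NS and 14776 and 14278 in NB9464 TCM + R788 (log2 change 0.68 ± 0.063, adjusted p = 2.53e-26). In class II, 2 of 11 rose and 4 fell (median -0.079), beside 20.0% and 19.4% of all genes tested. H2-Ab1 had 764 and 903 in NS and 2204 and 2139 in NB9464 TCM + R788 (log2 change 1.38 ± 0.14, adjusted p = 7.35e-22) whereas its partner H2-Aa had 579 and 619 in NS and 337 and 299.9 in NB9464 TCM + R788 (log2 change -0.91 ± 0.18, adjusted p = 4.54e-06), and H2-Eb1 had 489 and 516 in NS and 249.7 and 174 in NB9464 TCM + R788 (log2 change -1.24 ± 0.31, adjusted p = 0.000196). Ctss, the cathepsin that trims the invariant chain, had 140416 and 148699 in NS and 72038 and 68607 in NB9464 TCM + R788 (log2 change -1.04 ± 0.048, adjusted p = 5.94e-104). The levels of H2-Aa were 319 and 310.3 with TCM and 729.8 and 828 with R788.

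Cell-cycle genes fell. All 30 mitosis genes fell, with log2 changes of -3.26 to -1.83 and a median of -2.47. TCM alone lowered all 30 (median -2.05) and R788 alone 27 (median -0.59), beside the same 16.9% and 15.0% of all genes. Adding R788 to TCM lowered 20 of the 30 (median -0.36). Cenpf, a kinetochore protein, had 3088 and 2833 in NS and 274 and 347 in NB9464 TCM + R788 (log2 change -3.26 ± 0.16, adjusted p = 1.12e-86), the cytokinesis motor Kif23 had 5877 and 5964 in NS and 731 and 818 in NB9464 TCM + R788 (log2 change -2.94 ± 0.11, adjusted p = 8.31e-164), and Ccna2 (cyclin A2) had 9121 and 8872 in NS and 1319.9 and 1337 in NB9464 TCM + R788 (log2 change -2.76 ± 0.077, adjusted p = 1.21e-276). Mki67 fell to 5293 and 5767 from 22477 and 21047 (-1.98 ± 0.090). The cell cycle homology region TTTGAA stood in 22 of 28 windows of this list (78.6%) and in 17.9% of all windows. In the 200 bases before the start alone it stood in 10 (35.7%), against 12.5% of all.

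Replication genes fell less than mitosis genes in their median. Of 35 tested 34 fell and none rose, with a median of -1.32, against -0.86 with TCM alone and -0.79 with R788 alone. The polymerase Pole had 2904 and 2579 in NS and 705 and 694 in NB9464 TCM + R788 (log2 change -1.97 ± 0.12, adjusted p = 5.61e-59), the initiation factor Mcm10 3269 and 3203 in NS and 784 and 873 in NB9464 TCM + R788 (log2 change -1.97 ± 0.14, adjusted p = 1.29e-46), and the thymidine kinase Tk1 7750.1 and 7883 in NS and 2045 and 2224 in NB9464 TCM + R788 (log2 change -1.87 ± 0.079, adjusted p = 5.75e-122). Pcna, the sliding clamp, stood at 29326 and 30054 in NS, 13999 and 14218 with TCM, 11689.9 and 10866 with R788 and 9516 and 10229 with both. Its joint fall of -1.59 ± 0.056 was 0.88 short of the sum of both single falls (adjusted p = 9e-26), and 11 replication genes in all were short of the sum, against none past the sum. E2f1 was the one gene not called, with 3577 and 3719.8 and 3930.0 and 3812 (adjusted p = 0.449). E2F sites, TTTGGCGC or TTTCGCGC, stood in 9 of 34 windows (26.5%) and in 0.813% of all. Mki67, Pcna and E2f1 were chosen after their values were seen.

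Scavenger and efferocytosis receptors mostly fell, 12 of 17 tested, with 3 rises and a median of -0.95. The exception in size was Marco, a receptor for bacteria and particles, which reached 640614 and 641396 from 56469 and 57478 (3.49 ± 0.049). Mrc1, the mannose receptor CD206, fell to 888 and 872 from 28261 and 26069 (-4.95 ± 0.083). It stood at 2812 and 2517 with TCM and 27829.6 and 31158 with R788, where the change with R788 alone was not called (0.12 ± 0.075, adjusted p = 0.251), and the joint effect was past the sum of both by -1.72 ± 0.11 (adjusted p = 4.49e-49). Gas6, the bridge between phosphatidylserine and the TAM receptors, had 12059 and 12209 in NS and 1837 and 1635 in NB9464 TCM + R788 (log2 change -2.80 ± 0.078, adjusted p = 3.72e-279). The 3 TAM receptors differed: Mertk had 2510.4 and 2557 in NS and 4855 and 5055 in NB9464 TCM + R788 (log2 change 0.97 ± 0.090, adjusted p = 9.12e-26) and Axl 2131 and 1942 in NS and 627 and 729 in NB9464 TCM + R788 (log2 change -1.59 ± 0.23, adjusted p = 1.5e-11), while Tyro3 had 2.82 and 1.90 and 29.8 and 4.44 and was not called (adjusted p = 0.248). Cd5l, a secreted scavenger protein, had 3053 and 3119.6 in NS and 575 and 464 in NB9464 TCM + R788 (log2 change -2.57 ± 0.15, adjusted p = 1.67e-67), Stab1 96302 and 92735 in NS and 33809 and 35838 in NB9464 TCM + R788 (log2 change -1.44 ± 0.054, adjusted p = 1.47e-156), and Cd36 48806 and 47501 in NS and 19503 and 20181 in NB9464 TCM + R788 (log2 change -1.28 ± 0.048, adjusted p = 1.38e-151).

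Genes of lipid-associated macrophages fell too, 14 of 17 with 2 rises (median -1.07). Spp1 (osteopontin) had 135345 and 137111 in NS, 35422 and 35347 with TCM, 23319 and 21817 with R788 and 3791 and 4019 with both (joint -5.13 ± 0.052). Its joint fall was larger than either single one, and past their sum by -0.59 ± 0.072 (adjusted p = 4.87e-14). Lgals3 (galectin 3) had 138640.2 and 147217 in NS and 40215 and 37049 in NB9464 TCM + R788 (log2 change -1.89 ± 0.080, adjusted p = 2.51e-122), Cd9 11451 and 12293 in NS and 4332 and 4205 in NB9464 TCM + R788 (log2 change -1.48 ± 0.078, adjusted p = 3.89e-79), and the lipase Lpl 148325 and 136458 in NS and 50608 and 52371 in NB9464 TCM + R788 (log2 change -1.47 ± 0.051, adjusted p = 2.77e-177). Apoe went the other way under R788 alone: 5447 and 6055 in NS, 1933 and 2319.6 with TCM, 18913 and 22259.7 with R788 and 2752 and 2679 with both (joint -1.08 ± 0.10, adjusted p = 2.29e-27). Gpnmb fell to 249094 and 250304 from 481708 and 480336, and Cd63 and Ctsd rose by 0.40 and 0.20 on the log2 scale.

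Complement genes moved both ways. Of 15 tested 5 rose and 9 fell (median -0.79). The alternative pathway component Cfb had 56.4 and 55.9 in NS and 851 and 771 in NB9464 TCM + R788 (log2 change 3.85 ± 0.21, adjusted p = 1.63e-72), and C3 reached 49303 and 50354 from 10589 and 10120.1 (2.27 ± 0.046). The C1q chains, which start the classical pathway, fell together: C1qa had 12687 and 13924 in NS and 3303 and 3456 in NB9464 TCM + R788 (log2 change -1.98 ± 0.10, adjusted p = 2.09e-91), with C1qb at -1.76 and C1qc at -1.84 on the log2 scale. With R788 alone C1qa stood at 14424 and 13054, a difference from NS of 0.046 ± 0.10 that was not called (adjusted p = 0.787), and R788 raised it within TCM (0.48 ± 0.10, adjusted p = 1.89e-05).

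Matrix proteases and their inhibitors went apart, 6 up and 7 down of 19 (median -0.15, or -0.37 with genes at 0 set to their bound). The membrane protease Mmp14 reached 28858 and 28738 from 2596 and 2615 (3.47 ± 0.052), and the gelatinase Mmp2 had 163 and 192 in NS and 1312 and 1261 in NB9464 TCM + R788 (log2 change 2.85 ± 0.15, adjusted p = 8.49e-82). The elastase Mmp12 fell to 1637 and 1748 from 23405 and 23036 (-3.78 ± 0.085), the urokinase Plau to 704 and 565 from 11750.1 and 10982 (-4.16 ± 0.11), and the collagenase Mmp13 had 1390.0 and 1174 in NS and 61.7 and 101 in NB9464 TCM + R788 (log2 change -3.99 ± 0.22, adjusted p = 4.96e-73). Within TCM, R788 lowered 10 of the 19 and raised 1.

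**Figure D5:**
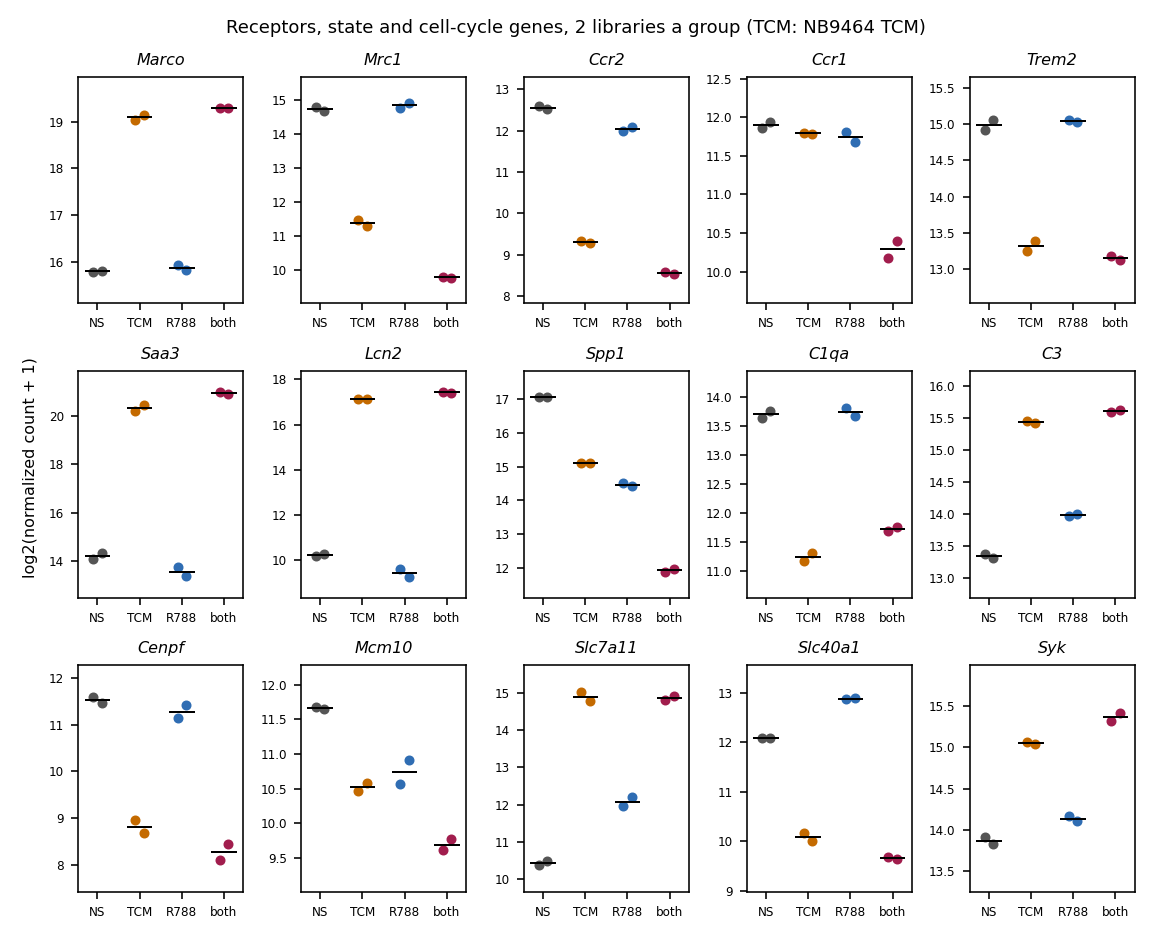
Log2(normalized count + 1) of 15 receptor, state and cell-cycle genes in the 2 libraries of NS, NB9464 TCM, R788 and both, 1 panel a gene with its own axis, points for libraries and bars for means. Marco, Saa3, Lcn2 and Slc7a11 rise with TCM and stay high with both, and Mrc1, Spp1 and Cenpf are lowest with both.

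Sterol synthesis genes mostly fell: 17 of 23 fell, 1 rose, and the median was -0.75. Idi1 had 1489.5 and 1287 in NS and 454 and 609 in NB9464 TCM + R788 (log2 change -1.39 ± 0.18, adjusted p = 3.64e-14), Msmo1 6138 and 6330.2 in NS and 2695 and 2627 in NB9464 TCM + R788 (log2 change -1.23 ± 0.073, adjusted p = 2.14e-61), and the feedback sensor Insig1 5469 and 4935 in NS and 2421 and 2410.3 in NB9464 TCM + R788 (log2 change -1.11 ± 0.080, adjusted p = 1.03e-41). The single rise was Mvd, by 0.52 on the log2 scale. R788 alone lowered 17 of these 23 genes (15.0% of all genes) and TCM alone 12 (16.9% of all). The sterol element TCACNCCAC stood in 1 of 19 windows (5.26%) and in 1.24% of all. Fatty acid synthesis and LXR targets had 3 rises and 10 falls of 18 (median -0.55). Scd2 stood at 9276 and 8616 in NS, 21755 and 21105 with TCM, 2246 and 2119.7 with R788 and 11877 and 13316 with both (0.49 ± 0.068, adjusted p = 2.5e-12), while Fasn had 7908 and 7254 in NS and 4779 and 4282 in NB9464 TCM + R788 (log2 change -0.74 ± 0.089, adjusted p = 9.47e-16) and the desaturase Fads2 had 1095 and 1134 in NS and 480.4 and 482 in NB9464 TCM + R788 (log2 change -1.21 ± 0.17, adjusted p = 1.35e-11). Nr1h3 (LXR alpha) had 950.5 and 912 in NS and 1469 and 1444 in NB9464 TCM + R788 (log2 change 0.65 ± 0.13, adjusted p = 1.71e-06).

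Energy genes mostly rose. In glycolysis and among HIF1A targets 28 of 35 rose and 3 fell (median 0.54), while R788 alone lowered 20 of them (median -0.30), beside 15.0% of all genes. Pfkfb3, which drives phosphofructokinase, reached 12790.5 and 13421 from 2218 and 2038 (2.62 ± 0.064), and Ndrg1 had 2286 and 2043 in NS and 8184 and 7999 in NB9464 TCM + R788 (log2 change 1.90 ± 0.091, adjusted p = 7.6e-95). Ldha stood at 68701 and 72074 in NS, 104225 and 113271 with TCM, 42239 and 40345 with R788 and 104617 and 100735 with both. R788 thus lowered Ldha without TCM (-0.77 ± 0.052) whereas the difference it made within TCM was not called (-0.083 ± 0.052, adjusted p = 0.3). In oxidative phosphorylation 36 of 54 subunit genes rose and none fell (median 0.35, range -0.14 to 0.96), 42 without R788 library 7 and 41 without R788 library 8 in the fit. Cox5a had 2925 and 3214 in NS and 5521 and 4935 in NB9464 TCM + R788 (log2 change 0.77 ± 0.10, adjusted p = 6.83e-14), and Cox8a had 7444 and 8334 in NS and 13228 and 12523 in NB9464 TCM + R788 (log2 change 0.71 ± 0.20, adjusted p = 0.00115). TCM alone raised 9 of these 54 genes, a share close to the 17.2% of all genes, and lowered 1. R788 alone raised none of the 54 and lowered 18 (median -0.15), beside 15.0% of all genes. For 25 the joint effect was above the sum, 35 without R788 library 7 and 22 without library 8. Ldha was chosen after its values were seen.

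The list of redox and iron genes rose, 19 of 23 with 2 falls (median 1.0). The copper ferroxidase Cp (ceruloplasmin) went from 74.2 and 92.9 to 5239 and 5603 (6.02 ± 0.15), and Sod2 from 5317 and 5642 to 84940.3 and 82447 (3.93 ± 0.068). The ferritin heavy chain Fth1 had 590012 and 622344 in NS and 1702546 and 1618415 in NB9464 TCM + R788 (log2 change 1.45 ± 0.065, adjusted p = 2.74e-108), and Hmox1, which opens heme, had 37941 and 38388 in NS and 101366 and 99988 in NB9464 TCM + R788 (log2 change 1.40 ± 0.041, adjusted p = 2.59e-247). The falls were the iron exporter Slc40a1 (ferroportin), with 4343 and 4366 in NS and 818 and 799.7 in NB9464 TCM + R788 (log2 change -2.43 ± 0.095, adjusted p = 3.43e-142), and the transferrin receptor Tfrc, with 9175 and 8667 in NS and 5492 and 5707 in NB9464 TCM + R788 (log2 change -0.67 ± 0.083, adjusted p = 4.66e-15). Slc40a1 was raised by R788 alone, to 7477 and 7626. The antioxidant element TGACNNNGC stood in 6 of 24 windows (25.0%) and in 12.4% of all. Fth1 and Hmox1 were chosen after their values were seen.

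Slc7a11, the cystine importer, belongs to that list and to the ATF4 response. Its window (chr3:50443614-50443863, minus strand, GRCm38.p6) is shown because it holds 2 copies of the C/EBP-ATF response element TGATGNAA, in capitals, 1 on each strand.
Slc7a11: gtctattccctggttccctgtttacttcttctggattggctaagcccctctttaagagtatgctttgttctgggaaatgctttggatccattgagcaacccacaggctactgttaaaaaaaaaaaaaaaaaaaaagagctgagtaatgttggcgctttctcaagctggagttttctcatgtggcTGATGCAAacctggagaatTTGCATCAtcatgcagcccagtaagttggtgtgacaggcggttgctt
That element stood in 11 of 34 windows of the ATF4 list (32.4%) and in 3.97% of all. Slc7a11 had 1336 and 1422 in NS, 33048 and 28305 with TCM, 3964 and 4713 with R788 and 28852 and 31193 with both (joint 4.44 ± 0.085). Both single treatments raised it, and the joint rise was short of their sum (-1.68 ± 0.12, adjusted p = 4.34e-43). Of the 37 ATF4 genes 21 rose and 4 fell (median 0.37). The serine synthesis enzyme Phgdh had 648 and 713 in NS and 2158 and 2313 in NB9464 TCM + R788 (log2 change 1.72 ± 0.16, adjusted p = 6.25e-26), but the next enzymes Psat1 and Psph fell by 0.57 and 0.51. The transcription factors Atf5 and Cebpb had 1833 and 1991 in NS and 5864 and 5855 in NB9464 TCM + R788 (log2 change 1.62 ± 0.10, adjusted p = 3.84e-55) and 9736 and 10167 in NS and 24496 and 24476 in NB9464 TCM + R788 (log2 change 1.30 ± 0.069, adjusted p = 3.82e-78).

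Of 21 genes of the unfolded protein response 19 rose and none fell (median 0.66). Herpud1, of the degradation machinery, had 2529 and 2244 in NS and 11245 and 10784 in NB9464 TCM + R788 (log2 change 2.21 ± 0.10, adjusted p = 2.22e-114), and the chaperone Hyou1 had 9051 and 8691 in NS and 21194 and 21814 in NB9464 TCM + R788 (log2 change 1.28 ± 0.051, adjusted p = 6.44e-139). R788 alone lowered 13 of this list, beside 15.0% of all genes, and raised 2, a share close to the 11.6% of all genes. TCM raised all 21 in the presence of R788, though not all were called when either R788 library was left out. All 7 tested subunits of the phagocyte oxidase and its partners rose (median 0.73). Cybb, the catalytic subunit, reached 181017 and 185071 from 48716 and 45341 (1.96 ± 0.051), and the GTPase Rac2 had 18809.9 and 19701 in NS and 62062 and 60476 in NB9464 TCM + R788 (log2 change 1.67 ± 0.058, adjusted p = 7.99e-180).

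How the medium and the inhibitor combined could be read from the single treatments. Of the 12 Ifi200 genes TCM alone lowered 9 and R788 alone 8, and adding R788 to TCM lowered 8. For Csf3, Il1b, Ptgs2 and Ptges the joint level lay between NS and TCM alone: Csf3 had 4558 and 4965 with TCM and 1152 and 1269.6 with both (R788 within TCM -1.98 ± 0.11, adjusted p = 9.31e-70), Il1b 965 and 1123 and 569 and 579.8, and Ptgs2 (cyclooxygenase 2) 969 and 755 and 416 and 447. For Il12a, Il10, Lcn2 and Saa3 the joint level was above that of TCM, as with Saa3 at 1202501 and 1403746 and 2038600.3 and 1937812 (R788 within TCM 0.61 ± 0.15, adjusted p = 0.000548), although for Il10 the difference was not called (adjusted p = 0.178). For Ccl7, Ccl2, Ccl12 and Myc the joint level fell below NS where TCM alone gave 1.20 ± 0.055, 1.24 ± 0.086, 0.32 ± 0.23 and 0.29 ± 0.10 against NS. The Ccl12 value under TCM alone was not called (adjusted p = 0.302).

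Endothelin 1 (Edn1) departed from the sum of both effects. It had no count in NS, 564 and 520.2 with TCM, 23.6 and 22.4 with R788 and 100.5 and 121 with both, at least 39.1-fold above NS. Each treatment raised it on its own, yet R788 lowered it within TCM (-2.29 ± 0.29, adjusted p = 1.67e-13), and the departure was -9.34 ± 1.51 (adjusted p = 3.15e-08), a value that rests on NS being at 0 and so is no measured size. Cxcl5 had 631 and 742 with TCM, 20.9 and 51.9 with R788 and 626 and 614 with both (departure -3.44 ± 0.59, adjusted p = 3.03e-07). Rgs7bp had 67.6 and 155 in NS, 19.1 and 40.9 with TCM, 269.9 and 279 with R788 and 13.9 and 6.66 with both (departure -2.84 ± 0.86, adjusted p = 0.01, lost without NS library 1 among others).

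Against NBT3L TCM + R788, the same inhibitor in medium of the non-amplified line, the joint condition differed in amino acid and glucocorticoid-responsive genes. Chac1, which degrades glutathione, had 521 and 484 with NB9464 TCM + R788 and 33.9 and 54.3 with NBT3L TCM + R788 (log2 difference 3.51 ± 0.30, adjusted p = 1.6e-28). Trib3, an ATF4-induced pseudokinase, had 1389 and 1484 and 270.4 and 224 (2.54 ± 0.16, adjusted p = 1.32e-54). Of the 37 ATF4 genes 26 were higher and 1 lower than with NBT3L TCM + R788 (median 0.66), beside 3.53% and 6.09% of all genes tested. Klf9, which glucocorticoids induce, had 649.5 and 574 and 76.3 and 39.2 (3.41 ± 0.36, adjusted p = 2.13e-19), and of the 11 genes of that response 6 were higher and none lower. Hif3a had 258 and 239 and 32.9 and 46.2, and Tubb3, a neuronal tubulin, 292 and 387 and 28.6 and 54.3.

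Most glycolytic genes were lower than with NBT3L TCM + R788. Of 35 glycolysis and HIF1A genes 28 were lower and none higher (median -0.41). Of all genes tested 6.09% were lower and 3.53% higher in this comparison, which are the shares to set the lists below against too. Il1b had 569 and 579.8 with NB9464 TCM + R788 and 4922 and 4614 with NBT3L TCM + R788 (-3.05 ± 0.10, adjusted p = 1.79e-182). Serpinb2, an inhibitor of plasminogen activation, had 203 and 271 and 1390.2 and 1505 (-2.61 ± 0.34, adjusted p = 1.32e-12), and the mucin-like Pdpn had 206 and 225 and 885 and 880.2. The selenoprotein Selenow had 4475 and 4224 and 16664 and 16911 (-1.95 ± 0.12, adjusted p = 1.61e-60). Serinc2, with 61.7 and 22.2 and 173 and 169, was called by DESeq2 (adjusted p = 0.0466) but not by edgeR (adjusted p = 0.114). Interferon-stimulated genes were lower in 26 of 40 cases (median -0.62), and of 24 chemokines 12 were lower and 2 higher. Cytokines were lower in 7 and higher in 4 of 20 cases. Syk did not pass the test in this comparison (-0.053 ± 0.051, adjusted p = 0.662).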

How the data were processed

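Poly(A) RNA of 12 BMDM samples in 6 groups of 2 had been sequenced, and the deposited file held raw counts per gene that the authors made from the reads. The authors' methods name STAR on mm10 with Salmon and DESeq2, and the submitters' processing notes list STAR 2.6.1d, Salmon 1.4.0, SAMtools 1.9, Picard 2.26 and MultiQC 1.11. The labels say paired reads, the methods single reads, and 65.2% to 67.9% of counts between 1 and 40 were even in a library. Whether both mates of some pairs were counted was not tested, and halved counts were one alternative. Gene lengths in the table were used for TPM only. No read alignment was repeated.

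DESeq2 1.42.0 (R 4.3.3) was fitted to the 12 libraries at once with median-of-ratios scaling, and unshrunken log2 changes were tested by the Wald test. Genes without an adjusted p were not called. Folds against a group with no count were set against 3 counts per library, and groups with 1 to 3 counts were given as ratios with exact 95% intervals, which cover counting error only. Duplicate symbols were resolved to the gene with the higher mean. The fit was tested on simulated data. Named genes were Syk, the 12 largest called rises and falls (mean of at least 100, no overlap of the groups), per list the 3 largest called rises and falls with a mean of at least 100 and any member of lists of up to 18, and the 5 largest called values each way for the departure from additivity (called jointly too, mean of at least 100) and for the comparison with NBT3L TCM + R788 (mean of at least 100, no overlap). The 34 gene lists, the 8 marker lists and the comparison itself were chosen with earlier results of these data known. Promoter windows came from RefSeq (GRCm38.p6, 32851 windows of 27025 symbols, 250 bases before to 50 after the start). Alternatives were edgeR 4.0.16, TMM scaling, other filters, a 2-fold minimum, halved counts, fits to the compared libraries only, apeglm 1.24.0 shrinkage and leaving out each library.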

Additional observations from a re-analysis of the deposited data

Results flagged for a closer look

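For 10 genes the effect of R788 in NB9464 TCM differed from its effect without TCM by the interaction term of DESeq2 and the difference was among the 5 largest in its direction. The differences above 0 were 6.62 for Draxin (adjusted p = 0.00854), 4.84 for Fcrl5 (adjusted p = 0.0275), 4.76 for Zfp811 (adjusted p = 0.0175), 4.57 for U90926 (adjusted p = 0.0263) and 4.44 for Il12b (adjusted p = 0.0358), on the log2 scale. In NS these genes had few counts, most of them in 1 of the 2 libraries: Draxin had 0 and 15.2 in NS, 0 and 0 with R788, 674 and 675 with TCM and 1300.0 and 1447 with both, and Zfp811 had 1.88 and 26.5, 1.82 and 0, 805 and 771 and 1236 and 1362. Without NS library 2 the call was lost for Draxin, Fcrl5, Zfp811 and U90926, and without NS library 1 for Il12b. In edgeR the adjusted p was 0.0628 for Fcrl5, 0.0672 for U90926 and 0.0803 for Il12b.

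The differences below 0 were -9.34 for Edn1 (adjusted p = 3.15e-08), -6.00 for Ifi213 (adjusted p = 0.00118), -4.42 for Gm1720 (adjusted p = 0.039), -3.44 for Cxcl5 (adjusted p = 3.03e-07) and -2.84 for Rgs7bp (adjusted p = 0.01). Ifi213 had 84.2 and 79.9 with TCM, 130.0 and 147 with R788 and no count with both, and its call was lost without NS library 2. Gm1720 had 7.27 and 0 in the R788 libraries, so that 1 library with few counts carried its value. Edn1 and Cxcl5 passed the threshold in every alternative run. Draxin, Fcrl5, U90926 and Il12b had no count with R788, Edn1 and Gm1720 none in NS and Ifi213 none with both, so their fitted differences are no measured sizes.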

How the results depend on the processing

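No paired analysis was possible because the labels number the libraries and no number is shared between groups. A 2-fold minimum left 2523 calls against NS (1156 higher, 1367 lower), 343 against NB9464 TCM (75 and 268), 2274 against R788 (1142 and 1132), 383 for the departure from additivity (164 and 219) and 294 against NBT3L TCM + R788 (139 and 155). With each library left out in turn, the calls against NS ranged from 5010 to 6834 (higher 2552 to 3491, lower 2458 to 3346) and those against R788 from 5352 to 6796 (higher 2676 to 3717, lower 2643 to 3166). Against NB9464 TCM they ranged from 1419 to 2876 (higher 506 to 1223, lower 885 to 1660), for the departure from additivity from 1341 to 2967 (above 0 639 to 1662, below 0 697 to 1305), and against NBT3L TCM + R788 from 851 to 1977 (higher 317 to 762, lower 534 to 1215). Where this leaves 1 library in a group, that library is assumed to vary like the others. The quasi-likelihood test of edgeR called 6108 genes against NS, 1969 against NB9464 TCM, 6298 against R788, 1549 for the departure and 1196 against NBT3L TCM + R788. All other settings kept these counts within 1.5 times.

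Values under alternatives were tallied for a part of the named genes only. Of these values, 783 kept their direction and side of the threshold, 50 kept the direction but were no longer called, and 1 reversed. The reversed value was the departure of Gm1720, which became 0.13 without R788 library 7 and -5.49 without R788 library 8. With windows of the 200 bases before the start, the promoter shares of the mitosis list (35.7%) and of the NF-kB list (4.35%) moved and the other 9 held. List counts and medians moved in 107 cases and held in 1797. At 2 libraries a group, genes with few counts limit what could be called, and the cause of these changes was not tested.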

Other observations

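Lysosomal genes were divided, with 13 of 35 higher and 14 lower (median 0.061). The cathepsin Ctsz had 51632 and 54369 in NS and 108198 and 104168 in NB9464 TCM + R788 (log2 change 1.0 ± 0.059, adjusted p = 3.16e-64) while Ctsl had 139702 and 146459.7 in NS and 52303 and 51109 in NB9464 TCM + R788 (log2 change -1.47 ± 0.041, adjusted p = 9.55e-274), and the proton pump subunit Atp6v0d2, found in osteoclasts and some macrophages, had 471 and 473 in NS and 91.5 and 119 in NB9464 TCM + R788 (log2 change -2.17 ± 0.27, adjusted p = 7.31e-15). Eicosanoid enzymes had 4 rises and 8 falls of 14 (median -0.63): Ptges, which makes prostaglandin E2, reached 10989 and 11189 from 406 and 409 (4.77 ± 0.077), whereas Hpgd, which breaks it down, had 136 and 129 in NS and 3.98 and 2.22 in NB9464 TCM + R788 (log2 change -5.40 ± 0.79, adjusted p = 4.67e-11) and Alox5 had 2294 and 2160.0 in NS and 809.7 and 711 in NB9464 TCM + R788 (log2 change -1.55 ± 0.13, adjusted p = 6.95e-34). Hpgd stood at 4.78 and 0 with TCM and 316 and 241 with R788. Toll-like receptors and their adaptors had 11 rises and 5 falls of 18 (median 0.56). The brake Irak3 reached 18053 and 18145 from 3161 and 3055 (2.54 ± 0.062) and Tlr2 had 5768 and 6074 in NS and 17525 and 17902 in NB9464 TCM + R788 (log2 change 1.58 ± 0.055, adjusted p = 7.08e-180), whereas Tlr3 had 1095 and 855 in NS and 386 and 292 in NB9464 TCM + R788 (log2 change -1.52 ± 0.23, adjusted p = 4.34e-10) and Tlr4 4678 and 4257 in NS and 2421 and 2721 in NB9464 TCM + R788 (log2 change -0.80 ± 0.11, adjusted p = 1.19e-11).

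Lineage transcription factors had 6 rises and 9 falls of 19 (median -0.41), with Spi1 (PU.1) at 0.71 ± 0.063 and Klf4 at -1.42 ± 0.17 on the log2 scale. Immediate early genes of the AP-1, Egr and Myc families had 4 rises and 6 falls of 16 (median -0.30). R788 alone lowered 9 of them, beside 15.0% of all genes. Egr1 stood at 148 and 133 in NS, 271 and 287 with TCM, 25.4 and 9.58 with R788 and 87.5 and 87.7 with both (joint adjusted p = 0.124). Of 11 glucocorticoid-responsive genes 7 rose and none fell (median 0.29), Klf9 with 143 and 198 in NS and 649.5 and 574 in NB9464 TCM + R788 (log2 change 1.84 ± 0.34, adjusted p = 2.92e-07) and Fkbp5 with 2390.2 and 2419.8 in NS and 4778 and 5166 in NB9464 TCM + R788 (log2 change 1.05 ± 0.092, adjusted p = 5.48e-29). Actin, integrin and podosome genes had 8 rises and 8 falls of 23. Fscn1, an actin bundler, had 53.5 and 59.7 in NS and 510.3 and 535 in NB9464 TCM + R788 (log2 change 3.21 ± 0.26, adjusted p = 5.08e-33), the integrin Itgal 14140.3 and 13426 in NS and 45298 and 47166 in NB9464 TCM + R788 (log2 change 1.75 ± 0.052, adjusted p = 2.84e-244), and Itgb7 6980.0 and 7245 in NS and 1796 and 1697 in NB9464 TCM + R788 (log2 change -2.03 ± 0.090, adjusted p = 2.32e-109).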
